A study of Mus musculus with 48 samples.

Results

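The comparison described here is that of brown adipose tissue (BAT) from mice with and without a deletion of angiotensinogen (Agt) in hepatocytes, both housed at room temperature. It comprises 8 of the 48 libraries of the series, chosen by their titles: 4 from hepAGT-/- males (KO, replicates 9, 10, 14 and 19) and 4 from hepAGT+/+ littermate males (WT, replicates 12, 15, 17 and 18). All 8 mice lived at 20 to 22 °C on a cycle of 14 h light and 10 h dark and ate a Western diet with 21% milk fat and 0.2% cholesterol over 12 weeks, so that diet and housing did not differ between the groups. How the deletion was driven, the age of the mice and the hour of tissue collection are not given in the sources used here. The labels call the libraries biological replicates without an animal identifier, so p values measure the spread between libraries. In the main fit this spread was estimated from these 8 libraries together with the brown fat libraries from thermoneutral (warmer) housing. The p values therefore do not rest on the 8 libraries alone. Library totals ran from 25304872 to 39383039 counts, and the 10 most abundant genes took 31.9% to 40.2% of each library.

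Brown fat burns fatty acids and glucose in mitochondria and releases the energy as heat through uncoupling protein 1 (Ucp1). The process is switched on in the cold by noradrenaline from sympathetic nerves, and the tissue is densely supplied with capillaries. Angiotensinogen is made chiefly by hepatocytes and is cleaved by renin and then by angiotensin-converting enzyme (Ace) to angiotensin II, which constricts vessels and acts on many tissues. A deletion in hepatocytes leaves the Agt gene of brown fat intact, so the comparison asks how brown fat differs when the liver's supply of the precursor is lowered.

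The targeted gene was examined first. In liver libraries of the same housing, Agt was at 140 to 197 CPM (counts relative to library size after TMM normalisation, which evens out library composition) in KO and at 269 to 429 CPM in WT. In eWAT, the epididymal white fat of the same housing, the order was the opposite, at 128 to 192 CPM in KO and 64.8 to 123 CPM in WT without overlap. In a joint fit of eWAT and BAT libraries edgeR did not call Agt in eWAT (log2 change 0.75, adjusted p 0.782). That fit shares its estimate of the spread of each gene with BAT, where Agt was very low and uneven. A fit of eWAT alone was not run, so this p value does not settle the eWAT difference. In brown fat Agt (ENSMUSG00000031980) was close to the limit of counting, at 4.28, 0.545, 0.0734 and 0.133 CPM in KO replicates 9, 10, 14 and 19 and at 0.542, 2.28, 0.320 and 0.209 CPM in WT replicates 12, 15, 17 and 18. The groups overlapped, and edgeR did not call it (log2 change KO minus WT 0.57, SE 1.26, adjusted p 0.841). Without KO replicate 9 its log2 change was -1.74. The same libraries differed in albumin (Alb), a defining hepatocyte transcript, which was at 510 CPM in KO replicate 9 and at 252 CPM in WT replicate 15, against 3.05 to 181 CPM in the other 6. The part of such transcripts in the Agt values was not tested. The brown adipocyte label was met in every library, with Ucp1 (ENSMUSG00000031710) at 4798 to 8751 CPM in KO and 4856 to 10920 CPM in WT. Ucp1 was not called (log2 change -0.30, SE 0.38, adjusted p 0.704) and the groups overlapped.

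The libraries also differed in other cell types, and these values belong beside every result that follows. The summed level of 12 endothelial markers, in CPM of the library total, was 1450, 1102, 716 and 781 in KO replicates 9, 10, 14 and 19. In WT replicates 15, 17 and 18 it was 297, 272 and 247, and in WT replicate 12 it was 732. WT replicate 12 therefore lay within the KO range and above the other 3 WT libraries. The sum of 30 skeletal muscle markers was 7540.5 in KO replicate 14 and 2351 in KO replicate 19, against 519 and 79.7 in KO replicates 9 and 10. In WT replicates 12, 15, 17 and 18 it was 120, 757, 217 and 82.5. The clock genes Arntl and Dbp, which peak at opposite times of day, split the libraries differently again. Arntl was at 11.2, 12.4 and 14.4 CPM in KO replicates 9 and 10 and WT replicate 12, and at 0.400 to 2.61 CPM in the other 5. Dbp was at 6.51 to 16.9 CPM in those 3 libraries and at 76.5 to 126 CPM in the other 5. TMM factors were 0.751 to 0.758 in WT replicates 15, 17 and 18 and 0.858 to 0.977 in the other 5 libraries. With genes split into 10 bins, the median log2 change was -0.23 in the bin of shortest transcripts, 0.12 in that of the longest and 0.25 in that of highest GC content, against 0.0039 over all genes.

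**Figure D1:**
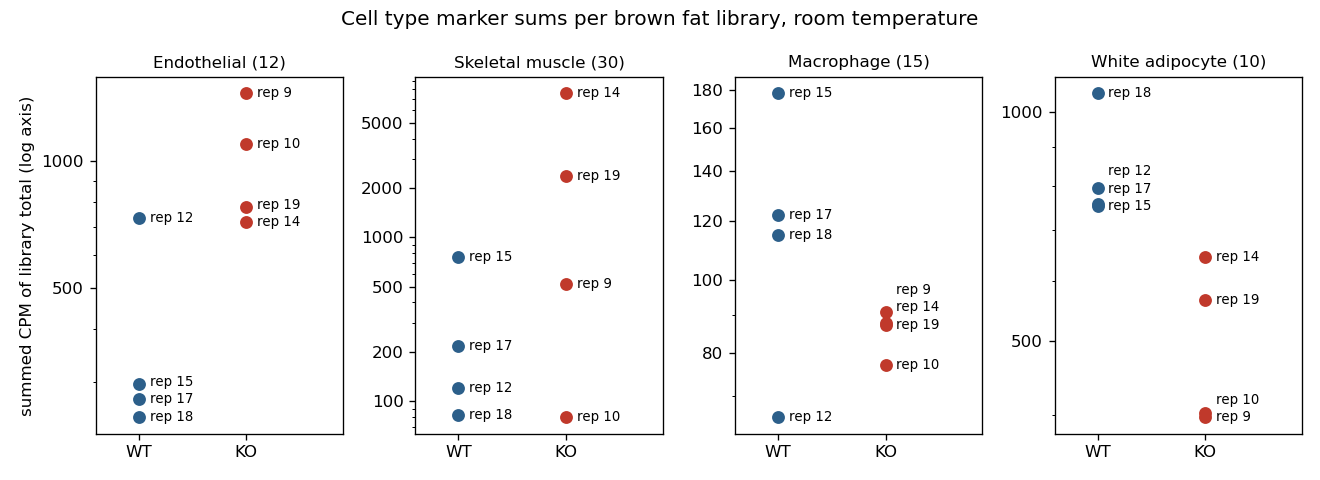
Summed markers of 4 cell types in each brown fat library at room temperature, on log axes in CPM of the library total (1 point per library, WT in blue and KO in red, labelled with the replicate number). WT replicate 12 lay at 732 for endothelial markers beside KO libraries at 716 to 1450, and muscle markers reached 7540.5 in KO replicate 14.

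Across all genes, edgeR's quasi-likelihood test called 16 of 18032 genes (0.0887%) at a Benjamini-Hochberg adjusted p under 0.05, 10 higher (0.0555%) and 6 lower (0.0333%) in KO. A gene is said below to have risen or fallen when it was called. All 16 had an adjusted p of 0.0499, so the calls stand at the threshold as a block, and in all 16 the KO libraries lay wholly on one side of the WT libraries. At an unadjusted p under 0.05 there were 1838 genes higher (10.2%) and 1669 lower (9.26%), and 953 genes (5.29%) had every KO library above every WT library and 717 (3.98%) the reverse. The 16 genes kept their direction in all 20 alternatives that were compared gene by gene. They were chosen in the same libraries and did not overlap there, so their direction could hardly change and is not independent support. The number called was 0 with relative log expression (RLE) scaling and 1979 (10.6%) without WT replicate 12. DESeq2 called 981 genes (5.44%) and limma voom with sample quality weights 2471 (13.7%), the 16 among them in both. Leaving out any 1 of the other 7 libraries gave 0 to 6 calls. WT replicate 12 was the WT library nearest to KO in 12 of the 16 called genes. The same share over all genes was not computed, so this count cannot be read as particular to the called genes.

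**Figure D2:**
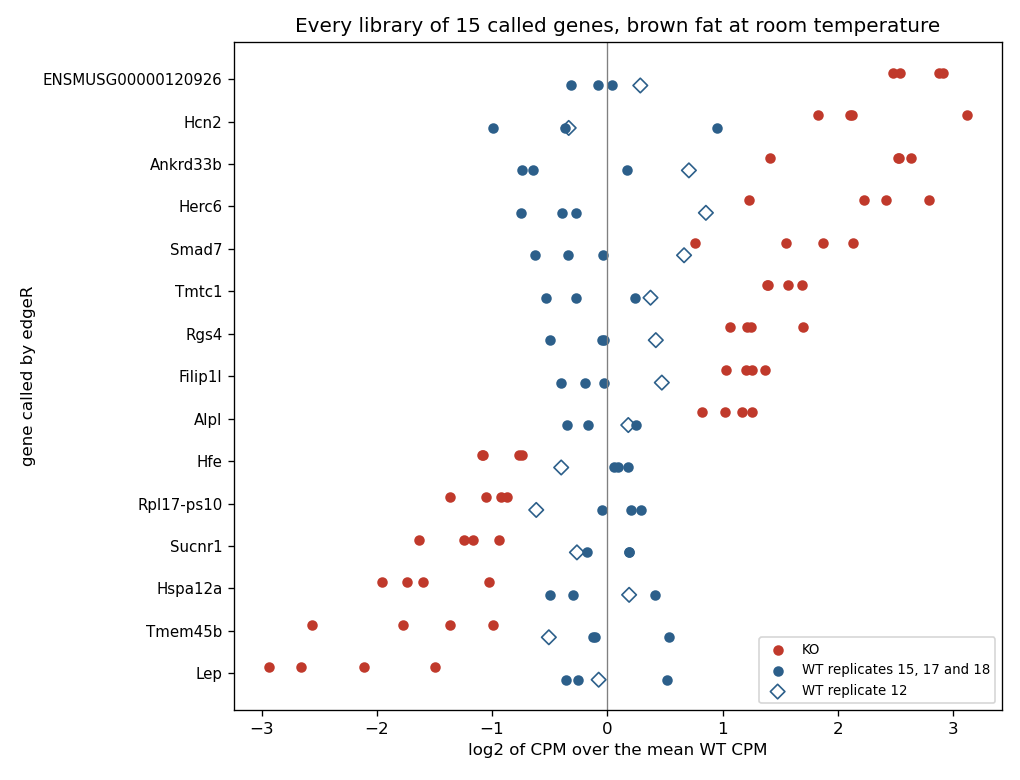
The 15 called genes described here in every library, as log2 of its CPM over the mean WT CPM (KO red, WT blue, WT replicate 12 an open diamond). The KO points do not overlap with the WT points in any row.

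Of the 6 genes that fell, leptin had the largest change. Lep (ENSMUSG00000059201, GRCm38 chr6:29060220-29073877 in GENCODE M21) encodes the hormone by which fat signals its stores to the brain. It was at 15.8, 19.1, 43.1 and 28.04 CPM in KO replicates 9, 10, 14 and 19 and at 114.9, 94.3, 101.5 and 173 CPM in WT replicates 12, 15, 17 and 18. The highest KO library stood at less than the lowest WT library, and WT replicate 12 sat among the other WT libraries. The log2 change was -2.19 (SE 0.37, edgeR adjusted p 0.0499), with a range of -2.79 to -1.97 over the alternatives. In a bulk sample a smaller number of leptin-producing cells and less leptin mRNA per cell cannot be told apart. Lep was also lower in KO eWAT, at 1042 to 1364 CPM against 3009 to 4265 CPM (log2 change -1.60, adjusted p 0.00291), and the difference between the depots was not called (-0.59, adjusted p 0.402). At thermoneutrality (30 °C) brown fat held 61.4 to 201.5 CPM in KO and 216 to 355 CPM in WT, and Lep was not called there (log2 change -1.03, adjusted p 0.778).

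The 250 bases before the Lep start site are shown because this promoter carries a sequence that few promoters have. They lie at chr6:29059971-29060220 on the plus strand (RefSeq, GRCm38.p6). Capitals mark TTGCGCAA, the palindrome bound by C/EBP factors, 55 to 48 bases before the start, and an overlapping pair of matches to TATAA, 1 on each strand, 32 to 27 bases before it. On either strand TTGCGCAA occurs in 0.164% and TATAA in 22.8% of the 32851 promoter windows of that length in the table. A match says only that the letters are present.
Lep promoter: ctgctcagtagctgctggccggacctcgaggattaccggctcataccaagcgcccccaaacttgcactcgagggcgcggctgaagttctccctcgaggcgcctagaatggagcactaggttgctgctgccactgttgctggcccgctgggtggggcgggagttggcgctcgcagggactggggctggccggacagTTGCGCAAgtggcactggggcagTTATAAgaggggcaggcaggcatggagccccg

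The other genes that fell had varied roles. Hspa12a (ENSMUSG00000025092, chr19:58795750-58943654), a distant member of the HSP70 chaperone family, was at 11.8 to 22.4 CPM in KO and 32.4 to 60.9 CPM in WT (log2 change -1.53). Tmem45b (ENSMUSG00000041737, chr9:31426196-31464462), which encodes a transmembrane protein, was at 68.4 to 204 CPM against 285 to 586 CPM (-1.56). Sucnr1 (ENSMUSG00000027762, chr3:60081869-60087566), the cell surface receptor for succinate, was at 2.17, 2.86, 3.01 and 3.52 CPM in KO replicates 9, 10, 14 and 19 and at 5.63, 7.71, 5.96 and 7.72 CPM in WT replicates 12, 15, 17 and 18 (-1.22). Its groups were separated by more than the range of the KO libraries. Hfe (ENSMUSG00000006611, chr13:23702034-23710854), which controls iron uptake, was at 22.2 to 28.2 CPM against 35.7 to 53.2 CPM (-0.91). It was also called lower in KO in eWAT (-1.10, adjusted p 0.00158). Rpl17-ps10 (ENSMUSG00000081895, -1.04) is a pseudogene of ribosomal protein L17, and its reads may belong to near-identical copies.

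Of the 10 genes that rose, 9 have a symbol in the reference table. Smad7 (ENSMUSG00000025880), the inhibitory Smad that blocks TGF-beta receptors and is itself induced by TGF-beta, was at 15.4, 12.9, 5.98 and 10.4 CPM in KO replicates 9, 10, 14 and 19 and at 5.59, 2.78, 2.28 and 3.44 CPM in WT replicates 12, 15, 17 and 18. The groups were separated by a narrow gap between KO replicate 14 and WT replicate 12. The log2 change was 1.66 (SE 0.30, edgeR adjusted p 0.0499), and 1.98 without WT replicate 12. Alpl (ENSMUSG00000028766, chr4:137741733-137796384), tissue-nonspecific alkaline phosphatase, which in brown fat mitochondria hydrolyses phosphocreatine, was at 40.2, 44.5, 35.0 and 47.4 CPM in KO and at 22.5, 15.5, 23.6 and 17.6 CPM in WT in the same order of replicates (1.08, SE 0.20). Every KO library was above every WT library. Herc6 (ENSMUSG00000029798, chr6:57581000-57664632), the mouse ligase that attaches the ubiquitin-like protein Isg15, was at 7.27, 4.91, 5.62 and 2.46 CPM in KO and 1.898, 0.871, 0.8004 and 0.626 CPM in WT (2.25, SE 0.42).

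An ion channel and signalling proteins were among the others. Hcn2 (ENSMUSG00000020331, chr10:79716634-79736108), a cation channel opened by hyperpolarization and cyclic AMP, was at 6.21 to 15.3 CPM in KO and 0.880 to 3.38 CPM in WT (log2 change 2.38). Rgs4 (ENSMUSG00000038530, chr1:169741477-169747642), which shortens signalling by G proteins, was at 12.0 to 18.7 CPM against 4.08 to 7.69 CPM (1.33). Filip1l (ENSMUSG00000043336, chr16:57353093-57573126), a filamin-binding protein, was at 14.5 to 18.3 CPM against 5.36 to 9.83 CPM (1.22). Tmtc1 (ENSMUSG00000030306, chr6:148232430-148444389), which attaches mannose to cadherins, was at 17.8 to 22.0 CPM against 4.69 to 8.81 CPM (1.51). Ankrd33b (ENSMUSG00000022237, chr15:31291478-31367726), an ankyrin repeat protein, was at 3.19 to 7.46 CPM against 0.720 to 1.97 CPM (2.35). The remaining gene, ENSMUSG00000120926, has no symbol and the largest change of the 16 (2.69).

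Genes next in order of p that met the same conditions but missed the threshold (edgeR adjusted p 0.0555 to 0.0673) are given by value only. Sgk1 (ENSMUSG00000019970), a kinase induced by glucocorticoids and aldosterone, was at 43.7 to 102 CPM in KO and 21.4 to 33.9 CPM in WT (log2 change 1.33). Rftn1, a lipid raft protein (1.46), and Mapre3, a microtubule end-binding protein (0.61), were on the same side. On the other side were Bmper, a secreted BMP-binding protein (-1.32), Lctl, a klotho family protein (-1.39), Cav2, a caveolin of the plasma membrane (-0.74), Mgst3, a glutathione transferase (-1.02), Mettl15, a methyltransferase of mitochondrial ribosomal RNA (-1.48), and Mal2, a vesicle transport protein (-1.07).

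Endothelial transcripts lay higher in KO throughout. All 12 of 12 markers tested had a higher mean in KO with an unadjusted p under 0.05, where 10.2% of all genes did, and their median log2 change was 1.25 against 0.0039 over all genes. None was called by edgeR (lowest adjusted p 0.0981), whereas DESeq2 called 9 higher (3.48% of all genes), limma voom with sample quality weights 9 (6.26%) and edgeR without WT replicate 12 called 6 (5.96%). In 5 of the 12 (Robo4, Flt1, Egfl7, Esam and Vwf) the groups did not overlap, as in 5.29% of all genes. Kdr (ENSMUSG00000062960), the main receptor for VEGF, was at 334, 281, 138 and 184 CPM in KO replicates 9, 10, 14 and 19 and at 158, 65.3, 52.7 and 48.9 CPM in WT replicates 12, 15, 17 and 18 (log2 change 1.53, SE 0.41, adjusted p 0.108). Cdh5 (ENSMUSG00000031871), the cadherin of endothelial junctions, was at 263, 227, 119 and 142 CPM and at 136, 42.9, 48.1 and 40.5 CPM (1.49). In both genes WT replicate 12 lay above the lowest KO library. Flt1 (ENSMUSG00000029648), a second VEGF receptor, was at 136 to 254 CPM in KO and 47.1 to 111 CPM in WT (1.44). Robo4 (ENSMUSG00000032125), an endothelial guidance receptor, was at 20.5 to 46.2 CPM and 9.36 to 20.3 CPM (1.37), with KO replicate 19 and WT replicate 12 almost level. Without KO replicate 9, 6 of the 12 markers kept an unadjusted p under 0.05 and their median was 0.86. Without WT replicate 12 the median was 1.55. More endothelial cells and more of these mRNAs per cell cannot be told apart.

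The promoters of 3 of these markers are shown because these genes lay higher in KO together while their upstream sequences differ. Each run is the 250 bases before the RefSeq start in GRCm38.p6: chr5:147726012-147726261 for Flt1 and chr5:75978456-75978705 for Kdr, both on the minus strand, and chr9:37401722-37401971 for Robo4, on the plus strand. Capitals mark AGGAAG on either strand, a common form of the core bound by ETS factors. Flt1 holds it 129 to 124 and 53 to 48 bases before the start, Robo4 holds it 49 to 44 bases before the start, and the Kdr window does not hold it. Of 12 markers 8 were in the table and 5 of those held it (Egfl7, Emcn, Flt1, Robo4 and Tie1), against 29.5% of all windows.
Flt1 promoter: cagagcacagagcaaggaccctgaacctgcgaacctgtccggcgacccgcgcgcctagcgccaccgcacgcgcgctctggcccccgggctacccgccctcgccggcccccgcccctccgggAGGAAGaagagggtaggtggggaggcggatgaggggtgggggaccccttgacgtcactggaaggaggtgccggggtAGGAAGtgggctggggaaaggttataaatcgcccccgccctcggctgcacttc
Robo4 promoter: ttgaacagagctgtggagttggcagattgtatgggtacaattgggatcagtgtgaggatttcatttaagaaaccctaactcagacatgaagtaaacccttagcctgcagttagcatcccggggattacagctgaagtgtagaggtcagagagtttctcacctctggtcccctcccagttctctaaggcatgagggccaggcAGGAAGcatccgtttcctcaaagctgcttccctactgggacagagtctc
Kdr promoter: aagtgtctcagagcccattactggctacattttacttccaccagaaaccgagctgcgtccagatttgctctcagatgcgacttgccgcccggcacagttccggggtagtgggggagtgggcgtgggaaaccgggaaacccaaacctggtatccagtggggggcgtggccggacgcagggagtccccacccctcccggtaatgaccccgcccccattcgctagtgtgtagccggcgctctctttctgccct

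Among renin-angiotensin genes, Ace stood out by its p value. Ace (ENSMUSG00000020681), the enzyme that makes angiotensin II and sits on the endothelial surface, was at 21.6, 17.8, 15.6 and 18.0 CPM in KO replicates 9, 10, 14 and 19 and at 9.86, 11.2, 7.44 and 5.74 CPM in WT replicates 12, 15, 17 and 18. Every KO library was above every WT library (log2 change 1.09, SE 0.23, edgeR adjusted p 0.0673). It was the only one of 12 tested genes of the renin-angiotensin list on that side with an unadjusted p under 0.05 (10.2% of all genes). On the other side there were 2 (9.26% of all genes), and the median of the list was -0.09. Col4a1, a basement membrane collagen, overlapped between the groups, at 207 to 358 CPM in KO and 120 to 258 CPM in WT (0.74), and the fibrosis list it comes from had a median of -0.07. Klf4 (ENSMUSG00000003032), a transcription factor induced by shear stress, was at 23.1 to 62.2 CPM and 10.2 to 15.4 CPM (1.45, adjusted p 0.108), and the immediate early list it comes from also had a median of -0.07. Of 10 smooth muscle markers 9 had a higher mean in KO, 4 with an unadjusted p under 0.05 (10.2% of all genes), and their median was 0.73. When the endothelial score (the mean log2 CPM of the 12 markers) was added to the fit, after seeing the data, 770 genes (4.27%) had an unadjusted p under 0.05, in place of 3507 (19.4%), and 0 were called. The 16 called genes kept their direction in that fit, each with an unadjusted p under 0.05. They were chosen by low p in the same libraries, so this is not independent support. The lowest edgeR adjusted p over all genes in that fit was 0.999. For Lep the log2 change was then -2.003 and for Smad7 1.13. The score itself did not overlap between the genotypes, at 5.51 to 6.53 in KO and 4.16 to 5.48 in WT. A fit with this score therefore cannot tell endothelial content from genotype.

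Interferon-stimulated genes, which encode antiviral and antigen-processing proteins, were higher in mean in KO for 27 of 30, with a median log2 change of 0.51. Herc6 rose. A further 9 had an unadjusted p under 0.05 on that side (10.2% of all genes did), and Zbp1, a sensor of nucleic acids, had one on the other side. The groups did not overlap for 7 of the 30, all higher in KO (5.29% of all genes): Herc6, Stat2, Irf9, Parp14, Oasl2, Mx1 and Irgm1. Stat2 (ENSMUSG00000040033) and Irf9 (ENSMUSG00000002325), the partners in the factor that type I interferon activates, were at 19.1 to 27.4 and 14.3 to 19.8 CPM in KO and at 8.86 to 14.5 and 5.63 to 11.5 CPM in WT (0.95 and 0.88, adjusted p 0.0981 and 0.1002). Irf7, a second interferon-response factor, overlapped between the groups, at 4.05 to 12.7 CPM against 2.82 to 4.68 CPM (1.10). With the endothelial score in the fit, 1 of 30 had an unadjusted p under 0.05 (4.27% of all genes) and the median was -0.12. The score followed genotype, so that fit cannot tell endothelial content from genotype. The part of endothelial content in these values was not tested.

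TGF-beta signalling genes showed no common direction in their means, as 13 of 24 tested were higher in KO and the median was 0.05. Smad7 rose. At an unadjusted p under 0.05, 6 were higher (10.2% of all genes) and 3 lower (9.26%). The groups did not overlap for 4, all higher in KO (5.29% of all genes), Smad7 and Id1 among them. Limma voom with sample quality weights called 4 higher (6.26%) and 0 lower (7.45%), DESeq2 2 higher (3.48%) and 1 lower (1.96%). Without WT replicate 12 edgeR called 3 higher (5.96%) and 1 lower (4.62%). Id1 (ENSMUSG00000042745), a target of BMP signals, was at 39.6 to 63.5 CPM in KO and 22.0 to 34.3 CPM in WT (log2 change 0.80, edgeR adjusted p 0.0998). The ligand Tgfb2 was at 1.21 to 2.96 CPM and 0.475 to 1.36 CPM (1.22).

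Genes of mitochondrial energy metabolism were mostly lower in mean in KO. None was called by edgeR, whereas limma voom with sample quality weights called 19 of 29 respiratory chain, 9 of 21 TCA cycle and 10 of 25 fatty acid oxidation genes lower (7.45% of all genes) and DESeq2 called 2, 0 and 2 lower (1.96%). Of 29 nuclear-encoded respiratory chain genes 28 had a lower mean, 11 with an unadjusted p under 0.05 (9.26% of all genes), and their median log2 change was -0.39. Atp5c1 (ENSMUSG00000025781), a subunit of ATP synthase, was at 600, 565, 615 and 631 CPM in KO replicates 9, 10, 14 and 19 and at 608, 1022, 1137 and 867 CPM in WT replicates 12, 15, 17 and 18 (-0.59, SE 0.18, adjusted p 0.117). WT replicate 12 lay among the KO libraries and the other 3 WT libraries above them. Ndufb5 of complex I had the same arrangement, at 380 to 436 CPM in KO, 402 CPM in WT replicate 12 and 618 to 766 CPM in the other 3 WT libraries. Uqcrc2 of complex III was at 1244 to 1617 CPM in KO and 1490 to 2336 CPM in WT. Ndufs1, also of complex I, did not overlap, at 518 to 857 CPM against 944 to 1135 CPM (-0.54). Without WT replicate 12, 13 of the 29 genes were called lower (4.62% of all genes) and the median was -0.54. With the endothelial score in the fit, 0 of 29 had an unadjusted p under 0.05 (4.27% of all genes) and the median was 0.02. That fit cannot tell endothelial content from genotype. The 13 protein genes of the mitochondrial genome had a median of 0.02.

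The other fuel pathways were alike in direction. All 21 genes of the TCA cycle, which feeds electrons to that chain, had a lower mean in KO. Of these, 6 had an unadjusted p under 0.05 (9.26% of all genes), and the median log2 change was -0.34. Sdhb, a subunit of the complex that oxidises succinate, was at 826 to 956 CPM in KO and 815 to 1524 CPM in WT (-0.51), and Pdhb of pyruvate dehydrogenase at 887 to 1327 CPM and 1304 to 1954 CPM (-0.60). Of 25 genes of fatty acid oxidation 19 were lower in mean, with a median of -0.40. The exception by size was Cpt1b (ENSMUSG00000078937), the muscle and brown fat form of the transferase that admits fatty acids to mitochondria, at 19.5, 14.9, 14.8 and 14.3 CPM in KO and 11.5, 9.08, 6.56 and 4.22 CPM in WT (1.01, SE 0.24, adjusted p 0.0839). Its groups did not overlap. Muscle also expresses Cpt1b, and KO replicates 9 and 10 had muscle marker sums of 519 and 79.7 CPM against 7540.5 and 2351 CPM in replicates 14 and 19. The part of muscle in the Cpt1b values was not tested. The 18 genes of branched-chain amino acid breakdown had a median of -0.31.

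**Figure D3:**
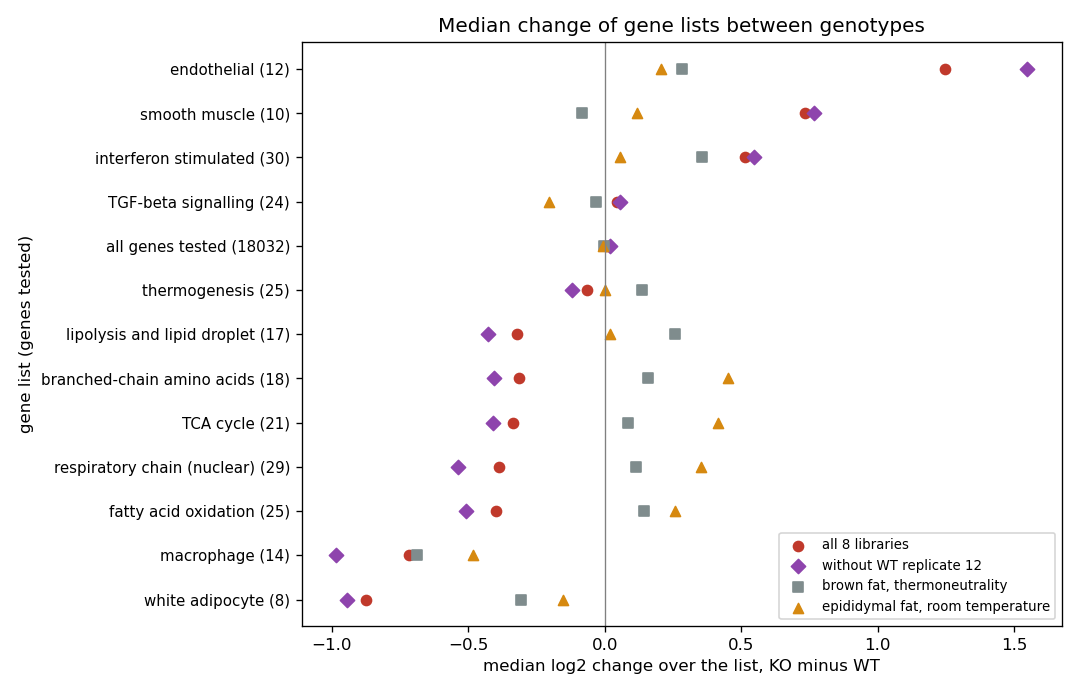
Median log2 change KO minus WT over gene lists (number of genes tested in brackets), in brown fat at room temperature with all 8 libraries (circles) and without WT replicate 12 (diamonds), in brown fat at thermoneutrality (squares) and in eWAT at room temperature (triangles). Endothelial markers stood at 1.25 and 1.55 in the first pair. The fuel pathways lay below 0 in that pair and above 0 both in eWAT and in brown fat at thermoneutrality.

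Thermogenic genes showed no common direction with edgeR on all libraries, as 11 of 25 tested had a higher mean in KO. The median log2 change was -0.07. At an unadjusted p under 0.05, 2 genes (Cpt1b and Adrb3) were higher (10.2% of all genes) and 3 lower (9.26%). Limma voom with sample quality weights called 5 lower (7.45%) and 1 higher (6.26%). Without WT replicate 12 edgeR called 2 lower (4.62%) and 1 higher (5.96%). DESeq2 called 0 lower (1.96%) and 1 higher (3.48%). Adrb3, the receptor through which noradrenaline activates brown fat, was at 187 to 325 CPM in KO and 167 to 215 CPM in WT (0.45). Fgf21, a hormone that brown fat can secrete, was at 0.367 to 0.545 CPM in KO and 1.02, 1.81, 4.88 and 1.04 CPM in WT replicates 12, 15, 17 and 18, without overlap (-2.28, SE 0.86, edgeR adjusted p 0.168). Of the genes of creatine and calcium cycling, which produce heat without Ucp1, Alpl rose. Ckb, the creatine kinase of that cycle, was at 45.8 and 50.004 CPM in KO replicates 9 and 10 and at 15.9 to 22.7 CPM in the other 6 libraries (0.93, adjusted p 0.156). Of 11 receptors for succinate and purines, Sucnr1 fell. Adora2a (ENSMUSG00000020178), the adenosine receptor coupled to cyclic AMP, was at 7.16 to 23.6 CPM in KO and 2.80 to 7.05 CPM in WT (1.72, adjusted p 0.0981), with WT replicate 12 the highest of its group.

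White adipocyte markers mostly had a lower mean in KO. Of 8 white adipocyte markers tested, Lep fell, 4 in all had an unadjusted p under 0.05, each lower (9.26% of all genes), and the median log2 change was -0.87. A wider list of white adipocyte genes, 17 tested, had a median of -0.33. With the endothelial score in the fit, the median was -0.43 for the 8 markers and -0.0051 for the wider list. That fit cannot tell endothelial content from genotype. Trarg1 (ENSMUSG00000046275), which assists the glucose transporter Glut4, was at 286 to 486.5 CPM in KO and 516 to 855 CPM in WT (-0.81, SE 0.20, edgeR adjusted p 0.0981). Npr3, the clearance receptor for natriuretic peptides, was at 82.7 to 101 CPM and 104.5 to 299 CPM (-0.94). The sums of the white adipocyte markers did not overlap, at 397 to 646 CPM in KO and 752 to 1058 CPM in WT. Lep, Trarg1 and Npr3 enter these sums, Trarg1 at the highest level among them, so the sums are not independent of the values above. Of 17 genes of lipolysis and the lipid droplet, 5 had an unadjusted p under 0.05, all lower (9.26% of all genes), with a median of -0.32. Cidec, which fuses lipid droplets, was at 549 to 921 CPM in KO, 688 CPM in WT replicate 12 and 1070 to 1424 CPM in the other WT libraries, and Plin4, a droplet coat protein, was at 318 to 511 CPM in KO and 435 to 566 CPM in WT. Pparg, the master regulator of adipocytes, was at 179 to 263 CPM and 258 to 363.5 CPM (-0.41).

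All 14 macrophage markers tested had a lower mean in KO, 8 with an unadjusted p under 0.05 (9.26% of all genes), and their median log2 change was -0.72. None was called by edgeR with all libraries, DESeq2 called 0 (1.96% of all genes were called lower), limma voom called 4 lower (7.45%), and edgeR called 8 lower without WT replicate 12 (4.62%). Without WT replicate 15 or without KO replicate 10, 1 of the 14 had an unadjusted p under 0.05. Lyz2, lysozyme, was at 39.4, 32.2, 27.3 and 31.9 CPM in KO replicates 9, 10, 14 and 19 and at 22.9, 86.4, 51.7 and 54.1 CPM in WT replicates 12, 15, 17 and 18. C1qa, of the complement system, was at 8.41 to 14.1 CPM in KO, 6.71 CPM in WT replicate 12 and 20.9 to 23.9 CPM in the other 3 WT libraries. H2-Aa, a class II antigen-presenting chain, was at 26.9 to 35.4 CPM in KO, 28.9 CPM in WT replicate 12 and 60.0 to 88.8 CPM in the others. In each of these genes the library that stood below or within the KO range was WT replicate 12. Ccr2 (ENSMUSG00000049103), the receptor that recruits monocytes, did not overlap, at 1.84 to 3.23 CPM against 3.65 to 6.77 CPM (-0.95, edgeR adjusted p 0.111).

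Skeletal muscle transcripts differed widely between libraries of the same genotype. All 30 markers had a higher mean in KO and their median log2 change was 3.80, yet the groups overlapped for all 30. None was called by edgeR, and 3 had an unadjusted p under 0.05, all higher in KO (10.2% of all genes did). DESeq2 called 1 higher (3.48% of all genes). Both counts are near the share over all genes. Myh4 (ENSMUSG00000057003), the fast myosin heavy chain IIB, was at 73.8, 0, 1203 and 489 CPM in KO replicates 9, 10, 14 and 19 and at 1.05, 59.9, 17.0 and 0.104 CPM in WT replicates 12, 15, 17 and 18 (4.50, SE 3.03, adjusted p 0.446). Acta1, skeletal actin, was at 48.4, 0.136, 816 and 226 CPM and at 1.83, 64.2, 16.1 and 0.417 CPM, and Ckm, muscle creatine kinase, at 35.6, 0.0681, 460 and 154 CPM and at 0.780, 90.8, 12.2 and 0.313 CPM. The order of the 8 libraries was nearly the same in the 3 genes, with KO replicates 14 and 19 highest and KO replicate 10 lowest. Without KO replicates 14 and 19, a choice made after seeing the data, the median of the 30 was 0.45 and 43 genes were called over the whole table, 10 of them among the 16. The 8 thermoneutral libraries were as unequal, with muscle sums from 87.7 to 14213 CPM.

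Whether the genotype difference changed with housing was tested in the same fit. At thermoneutrality edgeR called 0 genes (945, 5.24%, with an unadjusted p under 0.05; DESeq2 called 20). For the difference of the room temperature and thermoneutral changes it also called 0, with 1832 (10.2%) at an unadjusted p under 0.05, while DESeq2 called 21, limma voom with sample quality weights 1356 and edgeR without WT replicate 12 21. The 16 called genes had log2 changes from -1.03 to 0.46 at thermoneutrality and adjusted p values of 0.383 to 0.479 for the difference. A difference between the housings was therefore not shown by edgeR for any of them. In Herc6 the thermoneutral libraries held 5.05 to 8.56 CPM in KO and 2.52 to 7.72 CPM in WT, and in Smad7 6.75 to 10.6 CPM and 5.94 to 8.95 CPM, beside room temperature WT libraries at 0.626 to 1.898 and 2.28 to 5.59 CPM. Endothelial sums at thermoneutrality were 1088 to 1992 CPM in KO and 502 to 1528 CPM in WT.

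**Figure D4:**
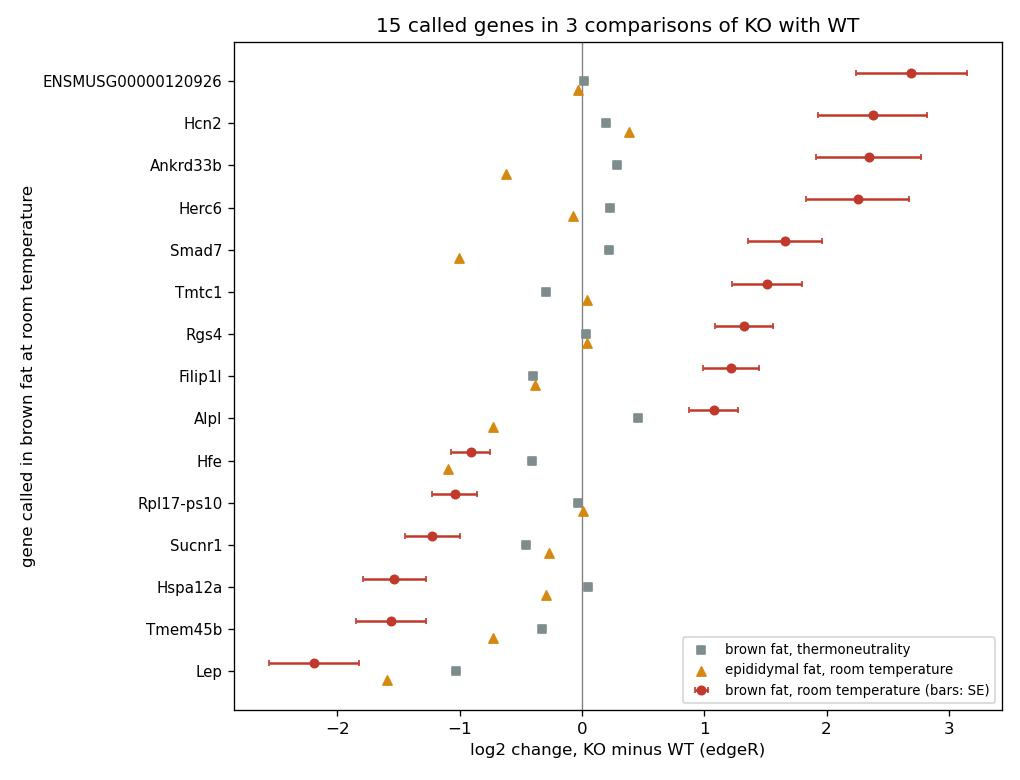
Log2 change KO minus WT of the 15 called genes described here in brown fat at room temperature (circles, bars are SE), brown fat at thermoneutrality (squares) and eWAT at room temperature (triangles). Lep, Hfe, Tmem45b and Sucnr1 lay below 0 in all 3 comparisons, and the genes that rose lay at 0.46 or less in the other comparisons.

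The genotype change was also compared with that of the second fat depot in the same housing. The change in BAT differed from that in eWAT for 470 of 18518 genes (2.54%), 300 with the higher value in BAT and 170 with the lower. Of the 16 called genes 8 were among them. The 16 were chosen for their change in the same BAT libraries, so this share is not independent of that choice. eWAT itself had 447 called genes (2.41%). Smad7 had a log2 change of -1.004 in eWAT (difference 2.65, edgeR adjusted p 0.00699), Alpl -0.73 (difference 1.79, adjusted p 0.0182) and Filip1l -0.38 (difference 1.59, adjusted p 0.0163). Hspa12a (-0.29 in eWAT) and Sucnr1 (-0.27) differed in size (differences -1.24 and -0.95). The respiratory chain list had a median of 0.35 in eWAT against -0.39 in BAT, and 4 of its 29 genes differed between the depots. For the TCA cycle the medians were 0.42 and -0.34, with 8 of 21 genes differing, and for branched-chain amino acid breakdown 0.45 and -0.31, with 10 of 18. In brown fat at thermoneutrality the medians of these lists were also above 0, at 0.12, 0.085 and 0.16 in the same order. Endothelial markers had a median of 0.21 in eWAT, and none of the 12 differed between the depots. Without WT replicate 12 of BAT, 2010 genes differed between the depots.

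**Figure D5:**
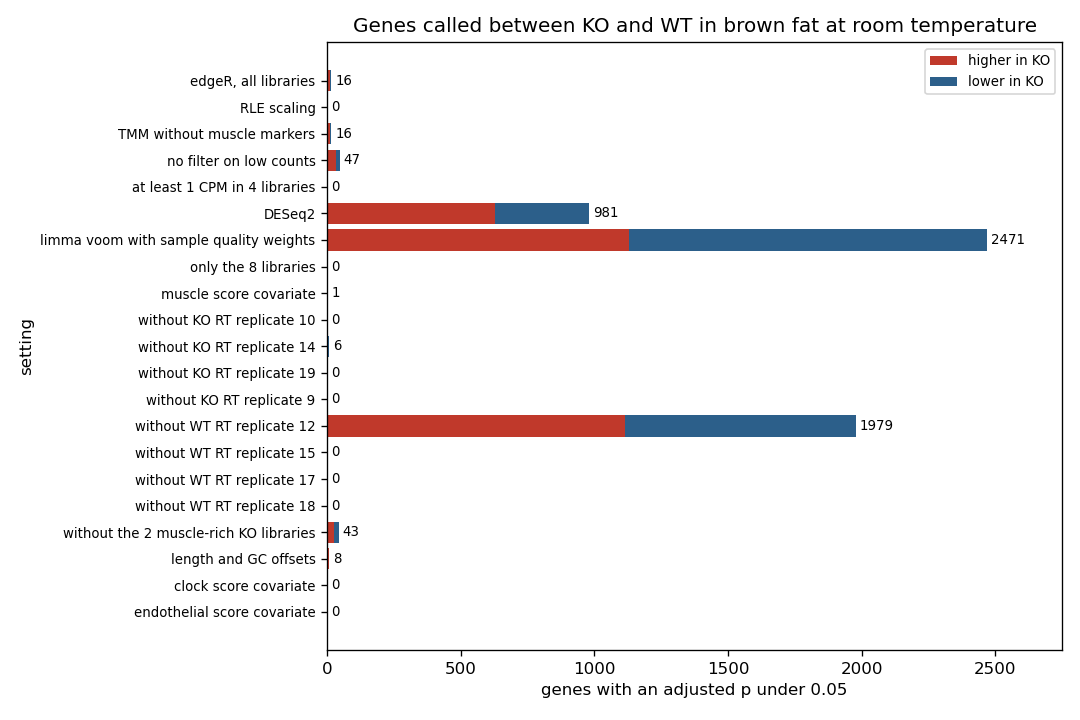
Number of genes with an adjusted p under 0.05 between KO and WT in brown fat at room temperature under each alternative (bars, red higher and blue lower in KO). The count was 16 with edgeR on all libraries, 1979 without WT replicate 12, 2471 with limma voom and sample quality weights, and 0 with RLE scaling.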

How the data were processed

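Gene expression was measured by RNA sequencing of snap-frozen tissue; per the labels' protocols, libraries were made with NEBNext Ultra kits and read in paired-end mode on a NovaSeq instrument. The authors deposited raw counts for each gene, and these were the starting point. The submitters' processing notes name fastp, STAR 2.6.1d, featureCounts 1.5.0-p3 and GRCm38 (mm10). The annotation release and the strand setting are not given in the sources used here, so overlapping and antisense genes cannot be told apart. Of 56748 Ensembl identifiers 52073 (91.8%) had a symbol in the reference table. Coordinates are from GENCODE M21, which may differ from the release used for counting.

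Groups came from the sample titles. The 16 BAT libraries were fitted together in R 4.3.3 with edgeR 4.0.16: library sizes were TMM-scaled, low genes were removed by filterByExpr (count threshold 10), a model of group means was fitted and contrasts were tested by robust quasi-likelihood (two-sided). P values were adjusted by Benjamini-Hochberg over the 18032 genes tested, with a threshold of 0.05. BAT and eWAT at room temperature were compared in a second fit of 16 libraries. SE is the log2 change divided by the root of F. CPM values are TMM-scaled, and marker sums use library totals. Of the liver libraries, Agt at room temperature was read as a check, and other libraries of the series were not analysed here. DESeq2 1.42.0 and limma 3.58.1 were alternatives, as were other scalings, filters and left-out libraries. The length and GC offsets used transcript values of 97.6% of the genes tested. The procedure was tested on simulated data.

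Agt, Ucp1 and Lep were always named. Besides them the rule took the called genes of largest change, up to 12 per direction, if they averaged 1 CPM or more and had no overlap and a symbol not of the Gm, Rik, AC or AL type, filled with uncalled genes by lowest p, and up to 4 genes of lowest p in each list plus set muscle genes, of which a part is described; some items are not reported here. ENSMUSG00000120926, Alb, Arntl, Dbp and Zbp1 fall outside it and were chosen after their values were seen. The comparison, the members and all lists were chosen with earlier results of these data known, so a list's direction is not independent evidence.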

Additional observations from a re-analysis of the deposited data

Results flagged for a closer look

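In 142 groups of 4 libraries (60 genes and 11 marker sums, in KO and WT), 13 held a library whose gap to the nearest of the other libraries exceeded Dixon's critical value. Chance marks about 1 group in 20. WT replicate 12 stood above the other WT libraries in Robo4 (20.3 CPM), Flt1 (111 CPM), Kdr (158 CPM), Cdh5 (136 CPM) and the summed endothelial markers (732 CPM). WT replicate 18 stood above its group in Lctl (95.0 CPM) and the summed white adipocyte markers (1058 CPM), and WT replicate 15 in Agt (2.28 CPM) and Ckm (90.8 CPM). KO replicate 9 stood above its group in Agt (4.28 CPM) and Cpt1b (19.5 CPM) and below it in Ankrd33b (3.19 CPM), and KO replicate 10 stood above it in Hcn2 (15.3 CPM).

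The genotype change in BAT differed from that in eWAT, by edgeR's test of the difference, for 21 of the 60 genes named (2.54% of all genes). Many of the named genes were chosen by low p in the same BAT libraries, so this share is not independent of that choice. The change was more positive in BAT, on the log2 scale, for Ankrd33b (2.96), Smad7 (2.65), Herc6 (2.32), Rftn1 (1.86), Alpl (1.79), Sgk1 (1.79), Filip1l (1.59), Col4a1 (1.59), Tmtc1 (1.46), Klf4 (1.46), Ace (1.36) and Mapre3 (0.64). It was more negative in BAT for Bmper (-1.86), Mgst3 (-1.57), Hspa12a (-1.24), Pdhb (-1.24), Atp5c1 (-1.13), Sdhb (-1.11), Uqcrc2 (-1.01), Sucnr1 (-0.95) and Ndufs1 (-0.93).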

How the results depend on the processing

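The count of 16 genes between KO and WT was 0 with RLE scaling (3530 at an unadjusted p under 0.05), 0 with a filter of 1 CPM (3316), 0 in the 8 libraries alone (3040), 0 with a clock score (3051) and 0 with an endothelial score (770). It was 1 with a muscle score, 8 with length and GC offsets, 43 without the 2 muscle-rich KO libraries, 47 with no filter, 981 with DESeq2 and 2471 with limma voom. Leaving out 1 library gave 0 to 1979: 1979 without WT replicate 12, 290 without thermoneutral WT replicate 24, 23, 10 and 2 without thermoneutral KO replicates 2, 3 and 5, 6 without KO replicate 14, and 0 without any of the other 10. The difference between housings gave 21 calls with DESeq2, 1356 with limma voom and 0 to 21 with 1 library left out. The difference between depots gave 1324 with DESeq2 and 160 to 2010 with 1 library left out. No paired analysis was possible for KO against WT because the groups share no replicate number. Between the depots the replicate block gave 271 calls (239 and 32) in place of 470, and same-numbered libraries did not deviate together (correlations -0.309 to 0.137). Of the 21 named genes with a depot difference 11 were also called with the block, and Ankrd33b, Herc6, Sucnr1, Mapre3, Ace, Col4a1, Atp5c1, Ndufs1, Uqcrc2 and Sdhb were not. Also called with it were 5 of the 8 called genes with such a difference, 0 of 4 respiratory chain, 1 of 8 TCA cycle and 2 of 10 branched-chain amino acid genes.

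Direction reversed, as log2 changes, for Agt with limma voom (-1.27), without KO replicate 9 (-1.74; the highest value was 1.78, without WT replicate 15), with the clock score (-0.21) and with the endothelial score (-1.43). With the endothelial score it also reversed for Ucp1 (0.76), Uqcrc2 (0.043), Sdhb (0.046), Pdhb (0.079) and Cidec (0.056). With the muscle score it reversed for Acta1 (-0.77), Ckm (-1.41) and Myh4 (-0.12), and without the muscle-rich libraries for Ckm (-0.56). List medians reversed with the endothelial score for endothelial markers (-0.14), interferon-stimulated genes (-0.12), the respiratory chain (0.017), the TCA cycle (0.13), thermogenesis (0.35), lipolysis (0.21), fatty acid oxidation (0.22) and TGF-beta signalling (-0.064). The muscle score reversed the muscle median (-0.14). Thermogenesis reversed without KO replicate 9 (0.0068) and WT replicate 15 (0.018), and TGF-beta without WT replicate 15 (-0.0064) and with length and GC offsets (-0.082). A score made from a list's own genes removes that list's difference by construction. The endothelial score did not overlap between the genotypes, so its fit cannot tell endothelial content from genotype. The cause was not tested for the other reversals.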

Other observations

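Of 17 lymphocyte markers tested, 13 had a higher mean in KO, 6 with an unadjusted p under 0.05 (10.2% of all genes), and the median log2 change was 0.90. None was called by edgeR or DESeq2 and the groups overlapped for all 17, with summed levels of 5.85 to 43.9 CPM in KO and 6.65 to 21.6 CPM in WT. Of 18 genes of adrenergic and cyclic AMP signalling, 5 had an unadjusted p under 0.05, all higher in KO (10.2% of all genes). These were Adcy6, Pde4b, Adrb3, Nr4a1 and Nr4a3. The list had a median of 0.08 and none was called by edgeR. Of 13 genes for factors secreted by brown fat, Gdf15 and Fgf21 did not overlap between the groups and lay lower in KO (3.98% of all genes did), and the median was -0.30. Gdf15 was close to the limit of counting in KO, at 0.0680 to 0.2725 CPM. In WT replicates 12, 15 and 17 it was at 0.746, 2.08 and 0.880 CPM, and in WT replicate 18 at 6.88 CPM (edgeR adjusted p 0.0981). Heat shock genes had a median of -0.35 over 17 tested, of which Hspa12a fell.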
